A study of Mus musculus with 4 samples.

Results

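The Ihh/Col10a1 chondrocytes were growth plate type cells that carried transcripts of Indian hedgehog (Ihh) or type X collagen (Col10a1) and were not dividing. They were picked out of single-cell RNA counts by measured values. A cell had to have 200 to 6000 genes and at most 5% mitochondrial unique molecular identifiers (UMIs, the count of captured RNA molecules). It was called a chondrocyte when Col2a1 was at least 100 UMIs per 10000 and above both Col1a1 and Cxcl12, when Sox9 had at least 1 UMI, and when the leukocyte gene Ptprc had 0. Cells with 3 or more UMIs of the division genes Mki67 and Top2a together were set aside. Of the rest, a cell belonged to the class when it had at least 2 Ihh UMIs or at least 100 Col10a1 UMIs per 10000. There were 705 such cells among 2790 non-cycling chondrocytes, 17941 passing cells of the 3 libraries used and 24084 passing cells of the whole series.

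The cells came from Td+ endosteal bone marrow of male Col2:Td mice, in which Cre under the Col2 promoter switches on a tdTomato reporter from the Rosa26 locus (strain label B6SJL/F1). Marrow released by protease digestion of metaphyseal bone pieces was sorted for the reporter, and 1 droplet (10x Chromium) library was made per age, from 2 pooled mice at 1 month (1M) and 3 pooled mice at 1.5 months (1.5M) and at 3 months (3M). A 16-month library (16M, 3 mice) held 4 non-cycling chondrocytes, 1 of which met the rule, and is not used further. With 1 library per age there is no replicate, so no test between ages or classes was made, the ranges in parentheses are 95% intervals for counting error only (Poisson for levels, Clopper-Pearson for shares), and age and library cannot be told apart.

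In the growth plate, round resting chondrocytes feed columns of dividing cells, which then stop dividing, enlarge and lay down a type X collagen matrix that mineralizes. Cells that have just left the cycle secrete Ihh, which acts through Patched on neighbouring cells and maintains PTHrP (Pthlh) in the resting zone, and PTHrP acting on its receptor Pth1r delays the step to hypertrophy. Runx2, Runx3, Mef2c and Foxa factors drive the step, and the last cells before the bone front make Spp1, Ibsp and Mmp13.

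The rule turned on 2 genes. Ihh (ENSMUSG00000006538) is on chromosome 1, minus strand (GRCm38, chr1:74945315-74951672), and Col10a1 (ENSMUSG00000039462) on chromosome 10, plus strand (chr10:34389981-34397085). Promoters of both are printed with those of Ibsp and of Spp1, the matrix genes that set the Col10a1-rich cells apart in the comparison below. Each runs from 250 bases before to 50 bases after the RefSeq start (GRCm38.p6), 5′ to 3′ on the gene's strand. The letters searched were the RUNX core TGTGGT, the AP-1 site TGANTCA and the TATA box TATAAA, each on both strands, and a match stands in capitals.
Ihh, chr1:74951623-74951922, minus strand: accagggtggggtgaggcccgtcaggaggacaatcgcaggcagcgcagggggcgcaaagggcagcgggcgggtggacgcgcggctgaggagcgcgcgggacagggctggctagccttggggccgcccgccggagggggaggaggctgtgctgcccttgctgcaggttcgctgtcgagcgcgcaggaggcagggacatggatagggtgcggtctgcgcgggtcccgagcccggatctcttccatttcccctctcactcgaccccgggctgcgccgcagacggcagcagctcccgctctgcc
Col10a1, chr10:34389731-34390030, plus strand: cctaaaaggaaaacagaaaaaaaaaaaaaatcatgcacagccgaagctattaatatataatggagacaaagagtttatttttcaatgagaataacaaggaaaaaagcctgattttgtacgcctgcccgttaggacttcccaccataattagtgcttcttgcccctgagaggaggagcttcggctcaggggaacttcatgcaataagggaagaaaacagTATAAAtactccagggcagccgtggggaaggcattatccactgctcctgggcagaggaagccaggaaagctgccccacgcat
Ibsp, chr5:104299037-104299336, plus strand: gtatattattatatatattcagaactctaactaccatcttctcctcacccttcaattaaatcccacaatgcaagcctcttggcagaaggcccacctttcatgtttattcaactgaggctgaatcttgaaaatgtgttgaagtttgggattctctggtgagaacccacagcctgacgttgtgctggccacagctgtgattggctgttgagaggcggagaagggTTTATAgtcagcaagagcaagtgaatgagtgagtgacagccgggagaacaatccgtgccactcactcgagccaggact
Spp1, chr5:104434861-104435160, plus strand: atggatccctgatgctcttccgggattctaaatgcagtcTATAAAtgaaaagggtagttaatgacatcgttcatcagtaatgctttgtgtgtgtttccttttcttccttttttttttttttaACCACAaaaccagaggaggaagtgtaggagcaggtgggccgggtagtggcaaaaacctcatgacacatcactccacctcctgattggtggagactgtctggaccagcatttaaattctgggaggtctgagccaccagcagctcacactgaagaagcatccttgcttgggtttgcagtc
The Ihh window held none of the 3 motifs. The TATA letters began 32 bases before the start in Col10a1, and on the opposite strand 28 bases before it in Ibsp. In the printed Spp1 promoter they lay 211 bases before the start, with a RUNX core on the opposite strand at 128 bases. Another RefSeq promoter of Spp1 (chr5:104435942-104436241) held none of the 3 motifs and is not printed. Among all 32851 promoters in the table, 16.8% held a RUNX core, 7.81% an AP-1 site and 13.6% TATA letters.

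The class was smallest in the 1M library. It held 28 of 321 non-cycling chondrocytes in the 1M library (8.72%, 5.87 to 12.4), 507 of 1733 in the 1.5M library (29.3%, 27.1 to 31.5) and 170 of 736 in the 3M library (23.1%, 20.1 to 26.3). Recovery of non-cycling chondrocytes differed too, at 3.86%, 31.8% and 17.6% of passing cells at 1M, 1.5M and 3M. Its part in the size of the class was not tested. Of 248 cycling chondrocytes set aside, 15 also reached the Ihh or Col10a1 threshold. Ihh/Col10a1 cells were deeper than the other non-cycling chondrocytes, with median totals of 18110 against 12180 UMIs at 1M, 18483 against 13617 at 1.5M and 9618 against 8297 at 3M. When each cell was thinned to 3000 UMIs before the rule was applied, 320 cells met it, 13.4% of the non-cycling chondrocytes. No barcode was a cell of the class in more than 1 library. The 1M and 1.5M libraries as a whole shared 61 barcodes, 1M and 3M 49, and 1.5M and 3M 30. Of these shared barcodes, 4, 2 and 4 were a cell of the class in 1 library of the pair. Cells among the 8% with the highest doublet scores of their library made up 10.7%, 5.52% and 5.29% of the class at 1M, 1.5M and 3M.

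Some members lay just inside a threshold. Among cells under the Col10a1 threshold, 5, 74 and 23 with exactly 2 Ihh UMIs were inside at 1M, 1.5M and 3M, while 8, 229 and 68 with 1 Ihh UMI stayed outside. Among cells with fewer than 2 Ihh UMIs, 1, 3 and 3 at 100 to 120 Col10a1 UMIs per 10000 were inside, and 0, 7 and 9 at 80 to 100 per 10000 stayed outside. Within the class, Ihh had a median of 3 UMIs per cell at 1M, 5 at 1.5M and 4 at 3M, with highest values of 50, 193 and 37. Col10a1 had medians of 7.21, 28.0 and 7.72 per 10000 and highest values of 371, 714 and 536. Both genes thus varied widely within the class.

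**Figure D1:**
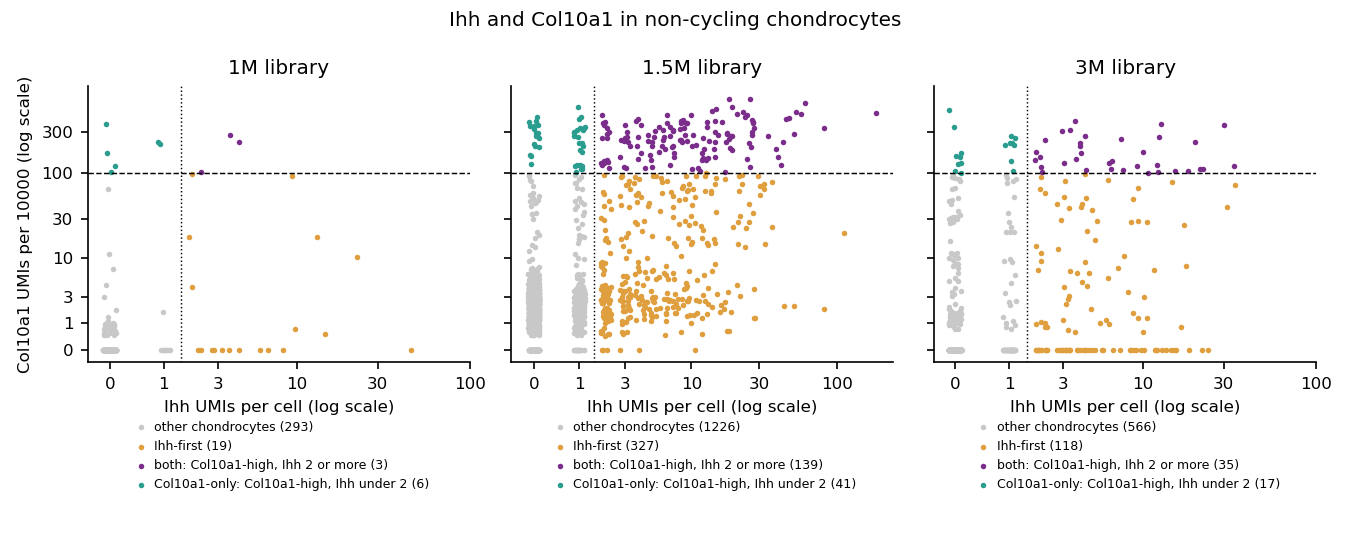
Each point is 1 non-cycling chondrocyte of the 1M, 1.5M or 3M library, placed by its Ihh UMIs (x) and its Col10a1 UMIs per 10000 (y), both on log scales and shifted slightly sideways so that points do not hide each other, with dashed and dotted lines at the thresholds. In the 1.5M panel 139 of the 180 cells above the Col10a1 line also lie to the right of the Ihh line, and many Ihh-positive cells lie far below the Col10a1 line.

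Levels are CPM, the UMIs of a gene per 1000000 UMIs of a class within a library, both summed over its cells. By construction Ihh and Col10a1 were high: Ihh stood at 367, 538 and 668 CPM in the class and 2.11, 13.8 and 14.1 CPM in the other non-cycling chondrocytes at 1M, 1.5M and 3M. Col10a1 stood at 6989, 10552 and 6338 CPM against 51.9, 435 and 333 CPM. Neutrophils, which make neither gene, gave an estimate of the free RNA of each library, over only 13 cells at 1.5M: their Ihh was 0.393, 0 and 1.97 CPM and their Col10a1 16.2, 204 and 14.6 CPM. At equal depth (3000 UMIs), a Col10a1 UMI was seen in 51.5% of the other chondrocytes at 1.5M and in 30.8% of 13 cells of the neutrophil gate there, all 13 with high doublet scores, so low Col10a1 at 1.5M could not be told from free RNA. The same shares were 4.10% and 2.64% at 1M, and 13.4% and 3.89% at 3M. Ihh was close to absent outside the class, with a UMI in 0.683%, 4.24% and 3.39% of the other chondrocytes and 0.179%, 0% and 0.707% of the neutrophil gate at that depth.

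The markers of the label that the rule did not use, Pcolce2 and Hapln1, were higher in the class in each library, Hapln1 by less than 2-fold. The label covers the class only in part: 464 of the 705 cells had Col10a1 under 100 per 10000, and at 1.5M their median Col10a1 was 3.87 per 10000, a level that could come from free RNA there. In those cells the prehypertrophic markers Pth1r and Panx3 were above the other chondrocytes in each library. Pcolce2, which codes for an enhancer of procollagen processing, was at 1155, 1465 and 5434 CPM against 486, 801 and 2081 CPM in the other non-cycling chondrocytes. Hapln1, the link protein that ties aggrecan to hyaluronan, was at 3922, 5998 and 3719 CPM against 2271, 3958 and 3070 CPM. Cartilage matrix genes stayed high: Col9a1, a chain of the type IX collagen on cartilage fibrils, was at 2909, 5057 and 3585 CPM against 2466, 4411 and 3713 CPM. Markers of neutrophils and macrophages were near the level of the other chondrocytes, and those of erythroid and B cells were lower in each library, least so at 1M. The 8 erythroid and B cell markers summed to 3566, 202 and 309.6 CPM in the class and 4091, 521 and 1860.2 CPM in the other chondrocytes, and their part in the comparisons was not tested. The summed neutrophil and macrophage markers were 10111, 213 and 1660 CPM in the class and 11192, 213 and 1738 CPM in the other chondrocytes, and were highest at 1M in both. The 6 endothelial markers summed to at most 19.9 CPM in the class and the 5 marrow stroma markers to at most 176 CPM. The 7 osteoblast markers summed to 36110, 24940 and 61077 CPM against 42061, 25943 and 44691 CPM, mostly Sparc, which chondrocytes also express. The reporter transcript (tomato) was lower than in the other chondrocytes, at 1396, 1514 and 2691 CPM against 2639, 2127 and 3203 CPM. It was at 2762, 2918 and 2841 CPM in the neutrophil gate, so its level did not mark chondrocytes.

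The hedgehog and PTHrP loop was divided: Pth1r was higher in the class, and the hedgehog targets Ptch1 and Hhip, and at 1M and 1.5M Pthlh, were higher in the other chondrocytes. Pth1r, the PTHrP receptor, was at 1730 (1616 to 1850), 2737 (2703 to 2771) and 3394 (3306 to 3484) CPM in the class at 1M, 1.5M and 3M, and at 467, 975 and 1770 CPM in the other non-cycling chondrocytes. Pthlh, its ligand, was at 0 (0 to 7.47), 0.446 (0.121 to 1.14) and 0.602 (0.0152 to 3.36) CPM in the class, from 0, 4 and 1 UMIs, and at 18.2 (14.2 to 23.0), 7.26 (6.02 to 8.68) and 1.04 (0.336 to 2.42) CPM in the other chondrocytes, from 69, 120 and 5 UMIs. The intervals were apart at 1M and 1.5M and overlapped at 3M. Ptch1, the Ihh receptor and itself a target of hedgehog signalling, was lower in the class, at 32.4 (18.5 to 52.6), 39.4 (35.4 to 43.8) and 37.9 (29.2 to 48.5) CPM against 74.3, 80.1 and 107 CPM. Hhip, a hedgehog-binding inhibitor and target gene, was at 6.08, 2.56 and 1.81 CPM against 53.5, 40.2 and 37.5 CPM. Gli1, the target transcription factor, was low in both, at 2.03, 2.45 and 2.41 CPM against 8.44, 8.59 and 6.42 CPM. The cells with the ligand therefore carried less Ptch1 and Hhip RNA than the other chondrocytes in each library, with intervals apart, while those of Gli1 overlapped at 1M and 3M. Only Pth1r of the 13 genes of this list outside the rule reached 100 CPM in all libraries, and it did not meet the 2-fold rule at 3M.

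Several genes changed in steps with Ihh at 1.5M, and less evenly at 3M. Among non-cycling chondrocytes under the Col10a1 threshold in the 1.5M library, cells with 0, 1, 2, 3 to 9, and 10 or more Ihh UMIs numbered 997, 229, 74, 167 and 86. Pth1r was at 853, 1437, 2136, 2577 and 3030 CPM over these steps. Panx3, a channel protein of prehypertrophic cells, was at 167, 314, 486, 598 and 689 CPM. In the 1.5M library, cells with a single Ihh UMI, which the rule left out, thus lay between the cells without Ihh and those inside the threshold for these genes. Hhip went the other way over the steps, at 43.9, 26.3, 3.13, 1.39 and 2.31 CPM, and Ptch1 was at 84.4, 63.8, 61.1, 47.5 and 38.8 CPM. Ibsp had no such grade at 1.5M, at 300.1, 545, 334, 343 and 497 CPM. In the 3M library the same 5 steps held 498, 68, 23, 71 and 24 cells, with Pth1r at 1592, 2918, 3113, 3405 and 4309 CPM. Ibsp there was at 1116, 3441, 4717, 4317 and 5516 CPM, and Panx3 at 232, 576, 500.1, 633 and 630.4 CPM. At 3M a single Ihh UMI thus went with levels of Panx3 near those inside the threshold. Median depth differed over the steps too, from 13279 to 19436 UMIs at 1.5M and from 8171 to 11527 at 3M, and its part in the grade was not tested.

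Against the other non-cycling chondrocytes, 17 of 1098 genes with at least 100 CPM in the higher class were at least 2-fold higher in the class with intervals apart in all 3 libraries (1.55% of genes called), and 13 were lower (1.18% called). Without the 1M library the counts were 30 and 20, and without the 3M library 25 and 20. Because the cells were chosen from the same counts, these shares describe the class and support nothing further. The median log2 ratio over all 1098 genes was −0.08. The genes that were higher included the transcription factor Mef2c, the cell cycle inhibitor Cdkn1c, and Alpl and Ibsp of the mineralization list. The lower ones included Ucma of the resting zone list and Prelp of the cartilage matrix list.

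Among regulators, Mef2c, the transcription factor that turns on Col10a1 in development, was at 371 (319 to 429), 506 (491 to 521) and 770 (729 to 814) CPM in the class and 78.3, 136 and 272 CPM in the other chondrocytes. Its log2 ratio was 2.24, 1.89 and 1.50 at 1M, 1.5M and 3M. Mef2c was the only one of 3 measured genes of the hypertrophy transcription factor list that met the rule. It was also the only 1 of the 3 above 0 in all libraries, and their median log2 ratio was −0.06. The others of that list were mostly below 100 CPM. Runx2 was at 44.6, 85.5 and 113 CPM against 35.3, 52.7 and 74.9 CPM, with overlapping intervals at 1M. Sp7, the osteoblast and hypertrophy factor osterix, was at 66.9, 80.4 and 48.8 CPM against 26.4, 58.7 and 41.4 CPM. Foxa2 and Foxa3 are forkhead factors of hypertrophy. Foxa2, with overlapping intervals at 1M, was at 14.2, 55.4 and 76.5 CPM against 3.69, 23.2 and 27.9 CPM, and Foxa3 was at 79.0, 118 and 141 CPM against 41.4, 52.4 and 69.1 CPM. Runx3, over the Col10a1 bins described below that held at least 20 cells, was highest in the lowest bin. It stood there at 110 CPM at 1.5M and 113 CPM at 3M. Sox9, which the rule required and which holds cells in the chondrocyte state, was at 261, 566 and 732 CPM against 462, 632 and 787 CPM.

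Of 2 measured genes of the cell cycle list, Cdkn1c was called. Cdkn1c, the cyclin-dependent kinase inhibitor p57, was at 1447 (1342 to 1557), 2977 (2942 to 3013) and 1367 (1311 to 1424) CPM against 362, 736 and 592 CPM, log2 ratios of 2.00, 2.02 and 1.21. Cdkn1a, the inhibitor p21, was at 598, 794 and 1352 CPM against 502, 463 and 678 CPM and did not reach 2-fold in any library. Ccnd1, the cyclin D1 that carries cells into division, was at 14.2, 16.4 and 6.63 CPM against 81.7, 57.9 and 60.2 CPM, below the level needed to enter the count. The rule bore on this group through Mki67 and Top2a, with the same limit in UMIs for both classes although their depth differed. Neither gene had a UMI in 53.6%, 91.5% and 95.9% of the class and in 63.1%, 88.6% and 93.3% of the other chondrocytes.

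Among mineral and matrix genes, Alpl, the phosphatase that frees phosphate for mineral, was at 1122 (1031 to 1220), 987 (966 to 1008) and 1512 (1453 to 1572) CPM against 303, 290 and 602 CPM, log2 ratios of 1.89, 1.77 and 1.33. Ibsp, bone sialoprotein, was at 3971, 2456 and 7210 CPM against 677, 351 and 1428 CPM, log2 ratios of 2.55, 2.80 and 2.34. In the 1.5M library the members with low Col10a1 had 386 CPM of Ibsp, near the level of the other chondrocytes. Of 7 measured genes of the hypertrophy and mineralization list, Alpl and Ibsp were higher, Mgp was lower and the median log2 ratio was 0.86. Phex, a mineral-regulating peptidase below the level for the count, was at 30.4, 29.9 and 42.8 CPM against 2.37, 6.05 and 8.90 CPM.

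Other genes called higher had varied roles. Cd200, a surface glycoprotein, was at 111, 144 and 436 CPM against 23.5, 40.0 and 145 CPM. It stood on the resting zone list, where Ucma was called in the opposite direction. Ddit4l, an inhibitor of mTOR signalling, was at 122, 203 and 516 CPM against 34.0, 34.5 and 127 CPM. F13a1, a transglutaminase that cross-links matrix, was at 494, 223 and 417 CPM against 198, 42.5 and 161 CPM. Without the cells with the highest doublet scores, Cd200 and F13a1 were no longer called. Fxyd3 (1122, 428 and 696 CPM against 368, 93.0 and 251 CPM), Cystm1, Grb14 and Ptgis made up the rest of the 12 named, with Krtap17-1. Krtap17-1, a gene named for keratin-associated proteins, was at 182 (147 to 224), 117 (110 to 124) and 244 (221 to 269) CPM against 0.791, 9.49 and 61.9 CPM, but at 1M a single cell gave 53.3% of its UMIs in the class and the other chondrocytes had 3 UMIs in all. Bmp2 and Nog, a bone morphogenetic protein and an inhibitor of such proteins, were both higher in each library without meeting the rule. Bmp2 was at 150, 133 and 219 CPM against 80.7, 24.3 and 45.5 CPM, and Nog at 60.8, 129 and 110 CPM against 23.2, 55.7 and 59.4 CPM.

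**Figure D2:**
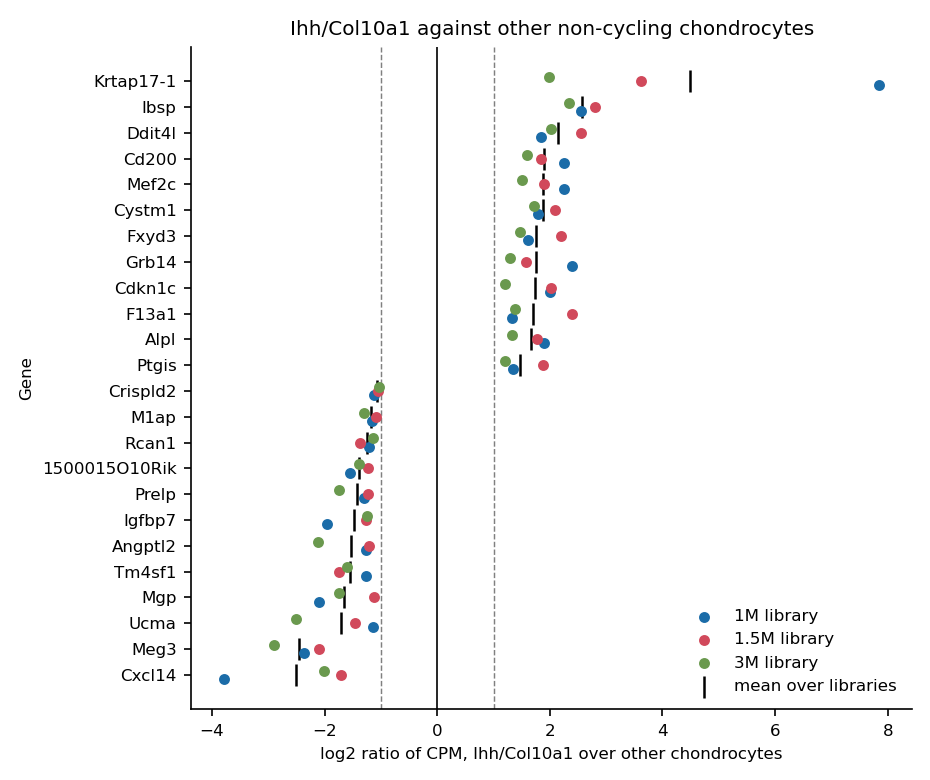
Log2 ratio of CPM in Ihh/Col10a1 chondrocytes over other non-cycling chondrocytes (x) for the 12 higher and 12 lower named genes (y), 1 point per library and a bar at the mean, with dashed lines at 2-fold. All points of Ibsp, Mef2c, Alpl and Cdkn1c lie right of the dashed line and those of Meg3, Cxcl14, Mgp and Ucma left of it, while Krtap17-1 spreads from 1.98 to 7.85.

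The 12 named lower genes had varied roles, and 1 of them, Ucma, stood on the resting zone list. Ucma, a vitamin K-dependent protein of the upper growth plate, was at 1548 (1440 to 1662), 846 (827 to 866) and 225 (202 to 249) CPM against 3421, 2324 and 1274 CPM. Mgp, the matrix Gla protein that inhibits mineralization, was at 2087, 2406 and 2965 CPM against 8896, 5255 and 9909 CPM, log2 ratios of −2.09, −1.13 and −1.74. Prelp, a small leucine-rich matrix protein, was at 227, 484 and 331 CPM against 559, 1132 and 1107 CPM. Meg3, a long noncoding RNA of an imprinted locus, was at 274, 149 and 48.2 CPM against 1404, 642 and 359 CPM. The chemokine gene Cxcl14 was at 14.2, 87.4 and 114 CPM against 196, 286 and 459 CPM. Igfbp7, a secreted binding protein, was at 867, 615 and 609 CPM against 3349, 1476 and 1444 CPM. The other named genes that were lower were Tm4sf1, 1500015O10Rik, Angptl2, Rcan1, M1ap and Crispld2, with log2 ratios from −2.11 to −1.04. Calls that ended were Ucma and M1ap with at least 3 Ihh UMIs, Mgp and M1ap when cells were thinned, Mgp without the condition on Sox9, and Crispld2 without high doublet scores or with cells weighted alike. Sfrp5, a Wnt inhibitor of the resting zone, fell outside the count by level and was at 2.03, 2.90 and 0 CPM (1, 26 and 0 UMIs) against 207, 58.2 and 13.0 CPM. In the resting zone list, 3 of 4 measured genes were below 0 in every library, with a median log2 ratio of −1.20.

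General cartilage matrix was much less divided. Of 19 measured genes of the chondrocyte factor and matrix list, 1 (Prelp) was lower, none was higher, and the median log2 ratio was 0.13. Glycolysis and ribosomal genes leaned lower without any called: 7 of 8 measured glycolysis genes (median log2 ratio −0.35) and 11 of 17 ribosomal protein genes (median −0.22) were below 0 in all libraries, as were 369 of all 1098 genes. No gene of the angiogenic factor and protease list met the rule in either direction. Vegfa, the main angiogenic factor of cartilage, was at 46.6, 42.2 and 30.7 CPM against 27.4, 21.7 and 19.9 CPM, below the level for the count. Mmp13, the collagenase of terminal cells, was at 231, 288 and 46.4 CPM against 27.9, 180 and 143 CPM, higher at 1M and 1.5M and lower at 3M. At 1M 1 cell gave 90.4% of the Mmp13 UMIs in the class, which without it stood at 22.9 CPM. At 3M the neutrophil gate had 168 CPM of Mmp13, above both classes.

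The class held cells at different points between Ihh and Col10a1. Members with Ihh of at least 2 UMIs and Col10a1 under 100 per 10000 were called Ihh-first, and those with Col10a1 of at least 100 per 10000 Col10a1-high. There were 19 and 9 of them at 1M, 327 and 180 at 1.5M and 118 and 52 at 3M, so that Col10a1-high cells were 32.1%, 35.5% and 30.6% of the class. Many cells had both genes at 1.5M and 3M. Of the Col10a1-high cells, 3 of 9, 139 of 180 (77.2%, 70.4 to 83.1) and 35 of 52 (67.3%, 52.9 to 79.7) also had at least 2 Ihh UMIs, and the other 6, 41 and 17 were Col10a1-only. Ihh was at 686 CPM in Col10a1-high and 461 CPM in Ihh-first cells at 1.5M, and at 699 and 655 CPM at 3M, although only the second class had been required to have it. The median cell had 3.89 and 3.07 Ihh UMIs per 10000 at 1.5M, but 3.82 and 4.59 at 3M, so the 2 measures differed in direction at 3M. At 1M Ihh was lower in the Col10a1-high cells, at 77.2 (39.9 to 135) CPM in 9 cells, from 12 UMIs, against 499.6 (427 to 581) CPM in 19 Ihh-first cells.

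Levels along Col10a1, over all non-cycling chondrocytes whatever their Ihh, showed where Ihh lay without choosing cells on it. Cells were binned at under 10, 10 to 30, 30 to 100, 100 to 300, and 300 or more Col10a1 UMIs per 10000, with 1388, 62, 103, 116 and 64 cells at 1.5M. Unlike the class levels, CPM in bins left the Col10a1 UMIs out of the total. Ihh was at 82.3, 528, 416, 522 and 1098 CPM in these bins. At 3M the bins held 617, 26, 41, 45 and 7 cells, and Ihh was at 111, 332, 454, 694 and 840 CPM, the last over only 7 cells. Ihh was thus highest in the highest bin at 1.5M, where 1 cell, at 489 Col10a1 UMIs per 10000, held 193 Ihh UMIs. At 3M, over the bins with at least 20 cells, Ihh rose and was highest at 100 to 300 per 10000. Pth1r reached its level in the second bin and stayed there at 1.5M (1161, 3014, 3059, 3085 and 2984 CPM). Alpl kept rising at 1.5M, from 318 through 949, 1118 and 1393 to 1588 CPM. Panx3 peaked early, at 249.8, 673, 656, 499.9 and 360 CPM. The 1M bins above 10 per 10000 held 16 cells in all and are not described.

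Col10a1-high and Ihh-first cells were compared in the 1.5M and 3M libraries, where both had at least 20 cells. Of 1115 genes, 20 were at least 2-fold higher in the Col10a1-high cells in both libraries with intervals apart (1.79% called) and 16 were lower (1.43% called), with a median log2 ratio over all genes of −0.10. The 1.5M library alone called 56 higher and 30 lower, and the 3M library alone 38 and 50. Here too the counts that chose the cells are the counts described. When each cell was thinned to 3000 UMIs before classing, 13 were higher and 12 lower, of which 8 and 7 were among the genes already called. Among the named genes, Hpgd, Loxl4, Ramp1 and Tcf7l2 and, of the lower ones, Bhlhe41, Chst11, Col12a1, Id2, Pkdcc, Rrad and Ucma were then no longer called, though their direction was unchanged.

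Among the 20 genes that were higher, Ibsp, Spp1 and Loxl4 stood on the mineralization list, and Bmp2 and Fgfr1 on the lists of growth factor pathways. Ibsp was at 6410 (6321 to 6500) CPM in Col10a1-high cells and 386 (370 to 402) CPM in Ihh-first cells at 1.5M, and at 13368 (13045 to 13698) and 4671 (4548 to 4796) CPM at 3M. Along the Col10a1 bins of the 1.5M library Ibsp was at 289, 455, 1062, 5585 and 8748 CPM. At 3M it was already at 11637 CPM in the second bin (1261, 11637, 7961, 14108 and 10407 CPM), so the order of Ibsp and Col10a1 differed between the libraries. Spp1, osteopontin, was at 4937 and 1091 CPM at 1.5M and 6564 and 470 CPM at 3M, log2 ratios of 2.18 and 3.80. The neutrophil gate had 1073 and 581 CPM of Spp1, near or above the Ihh-first cells, though at 1.5M over 13 cells with high doublet scores. Lox and Loxl4, which cross-link collagen, were higher with log2 ratios of 2.14 and 3.51 for Lox and 1.80 and 2.01 for Loxl4 at 1.5M and 3M.

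Bmp2 was at 277 (259 to 297) and 57.5 (51.6 to 64.0) CPM in Col10a1-high and Ihh-first cells at 1.5M, and at 456 (398 to 520) and 121 (102 to 142) CPM at 3M. Along the bins it was at 23.0, 72.6, 116, 229 and 405 CPM at 1.5M. Fgfr1, a fibroblast growth factor receptor, was at 200.1 and 48.7 CPM at 1.5M and 347 and 129 CPM at 3M. Tcf7l2, a transcription factor of Wnt signalling, was at 180.3 and 30.9 CPM, and 301 and 81.7 CPM. Aldh1a3, which makes retinoic acid, was at 364 and 28.9 CPM, and 101 and 21.3 CPM. The others named were Krtap17-1, F13a1, Hpgd and Ramp1, with log2 ratios from 1.27 to 3.05.

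Of the 16 genes that were lower, Epyc and Prelp stood on the cartilage matrix list and Clec11a and Ucma on the resting zone list. Ppa1, the inorganic pyrophosphatase of the cytosol, was at 1808 (1761 to 1856) CPM against 6640 (6574 to 6706) CPM in Ihh-first cells at 1.5M and 747 (672 to 828) against 6372 (6229 to 6518) CPM at 3M. Over the Col10a1 bins Ppa1 was at 4733, 6053, 4779, 2411 and 666 CPM at 1.5M and 5974, 2042, 2177, 836 and 259 CPM at 3M. Prelp was at 147 against 660 CPM and 109 against 422 CPM. Clec11a, a secreted growth factor, was at 102 against 318 CPM and 39.2 against 239 CPM. Id2, an inhibitor of helix-loop-helix factors that bone morphogenetic proteins induce, was at 63.9 against 173 CPM and 57.8 against 202 CPM, while Bmp2 itself was higher. Chst11, a chondroitin sulfotransferase, was at 143 against 328 CPM and 136 against 299 CPM. Ucma, already lower in the class, was at 466 against 1045 CPM and 116 against 270 CPM, a call that was also lost with at least 3 Ihh UMIs and with at least 5 cells in both classes. Pkdcc, Crispld2, Hist1h2bc, Col12a1, Rrad and Bhlhe41 completed the 12 named, with log2 ratios from −2.06 to −1.10.

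**Figure D3:**
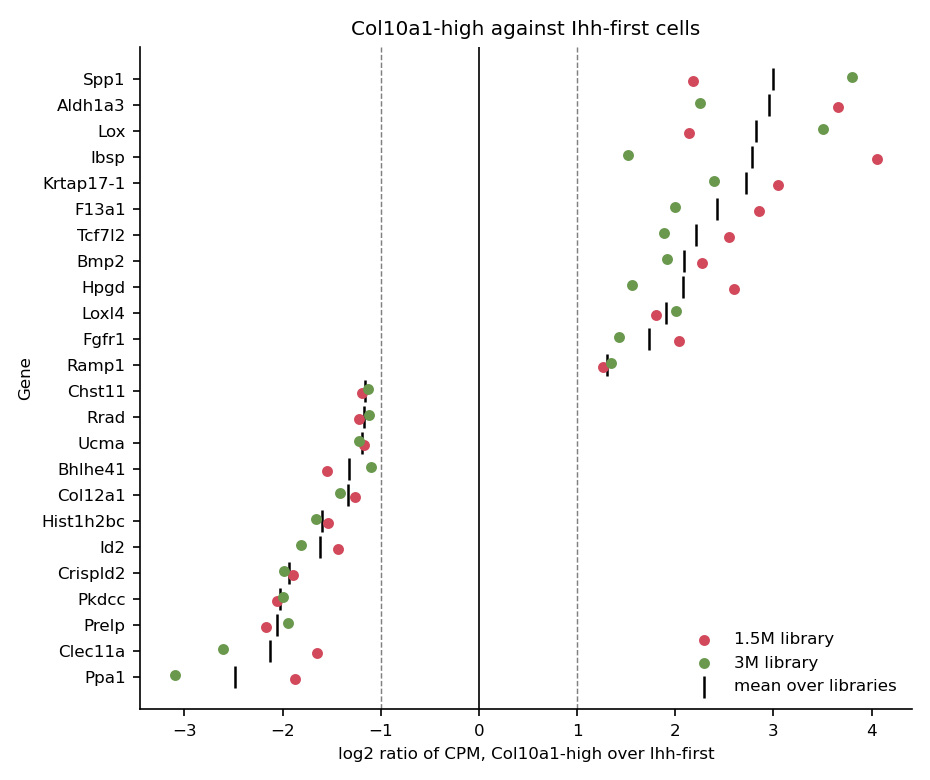
Log2 ratio of CPM in Col10a1-high over Ihh-first cells (x) for the 12 higher and 12 lower named genes (y), 1 point for each of the 1.5M and 3M libraries and a bar at the mean, with dashed lines at 2-fold. Ibsp reaches 4.05 at 1.5M and 1.52 at 3M, Spp1 2.18 and 3.80, and Ppa1 lies furthest left at 3M (−3.09).

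Whole lists moved less than these genes. Of 8 measured genes of the hypertrophy and mineralization list, Ibsp, Loxl4 and Spp1 were higher and the median log2 ratio was 0.48. All 12 measured genes of the secretory pathway and unfolded protein list lay below 0 in both libraries, with a median of −0.65, though none reached the 2-fold rule in both. Over all genes, 552 of 1115 lay below 0 in both libraries, against which this and the counts that follow are to be read. Serpinh1, the collagen chaperone HSP47, was at 2304 against 4576 CPM at 1.5M and 842 against 2155 CPM at 3M. Of 18 measured genes of the chondrocyte factor and matrix list, 13 were below 0 in both libraries (median −0.40) and Epyc and Prelp were called. Of 9 glycolysis genes, 6 were below 0 in both (median −0.46), and of 17 ribosomal protein genes 13 (median −0.15). Osteoblast markers did not separate the classes in 1 direction: the median of 6 was −0.26, and Bglap, osteocalcin, was at 1197 against 1275 CPM at 1.5M and 1595 against 6320 CPM at 3M.

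Spp1 was highest in the Col10a1-only cells in both larger libraries, and Mmp13 in the 1.5M library. Spp1 was at 1091 CPM in Ihh-first cells, 2983 CPM in cells with both genes and 12540 CPM in Col10a1-only cells at 1.5M, and at 470, 1219 and 18223 CPM at 3M. A single cell gave 30.9% and 27.4% of the Spp1 UMIs of the 41 and 17 Col10a1-only cells. Without it they stood at 8978 and 13878 CPM. At 1M, over 3 and 6 cells, Spp1 was at 30222 and 26854 CPM, against 2078 CPM in 19 Ihh-first cells. Ibsp, by contrast, was alike in cells with both genes and Col10a1-only cells, at 6468 and 6184 CPM at 1.5M and 13029 and 14108 CPM at 3M. Mmp13 was at 1283 CPM in Col10a1-only cells at 1.5M (961 CPM without the cell that gave 27.7% of its UMIs), against 232 CPM in Ihh-first cells and 166 CPM in cells with both. At 3M it was at 65.6, 33.2 and 84.3 CPM, all below the neutrophil gate. Pth1r was lowest of the 3 in the Col10a1-only cells, at 2258 CPM at 1.5M and 2251 CPM at 3M, against 3153 and 3298 CPM in cells with both. Ank, a pyrophosphate transporter, was at 9.51, 15.5 and 74.6 CPM in Ihh-first, both and Col10a1-only cells at 1.5M and at 18.7, 63.2 and 144 CPM at 3M.

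**Figure D4:**
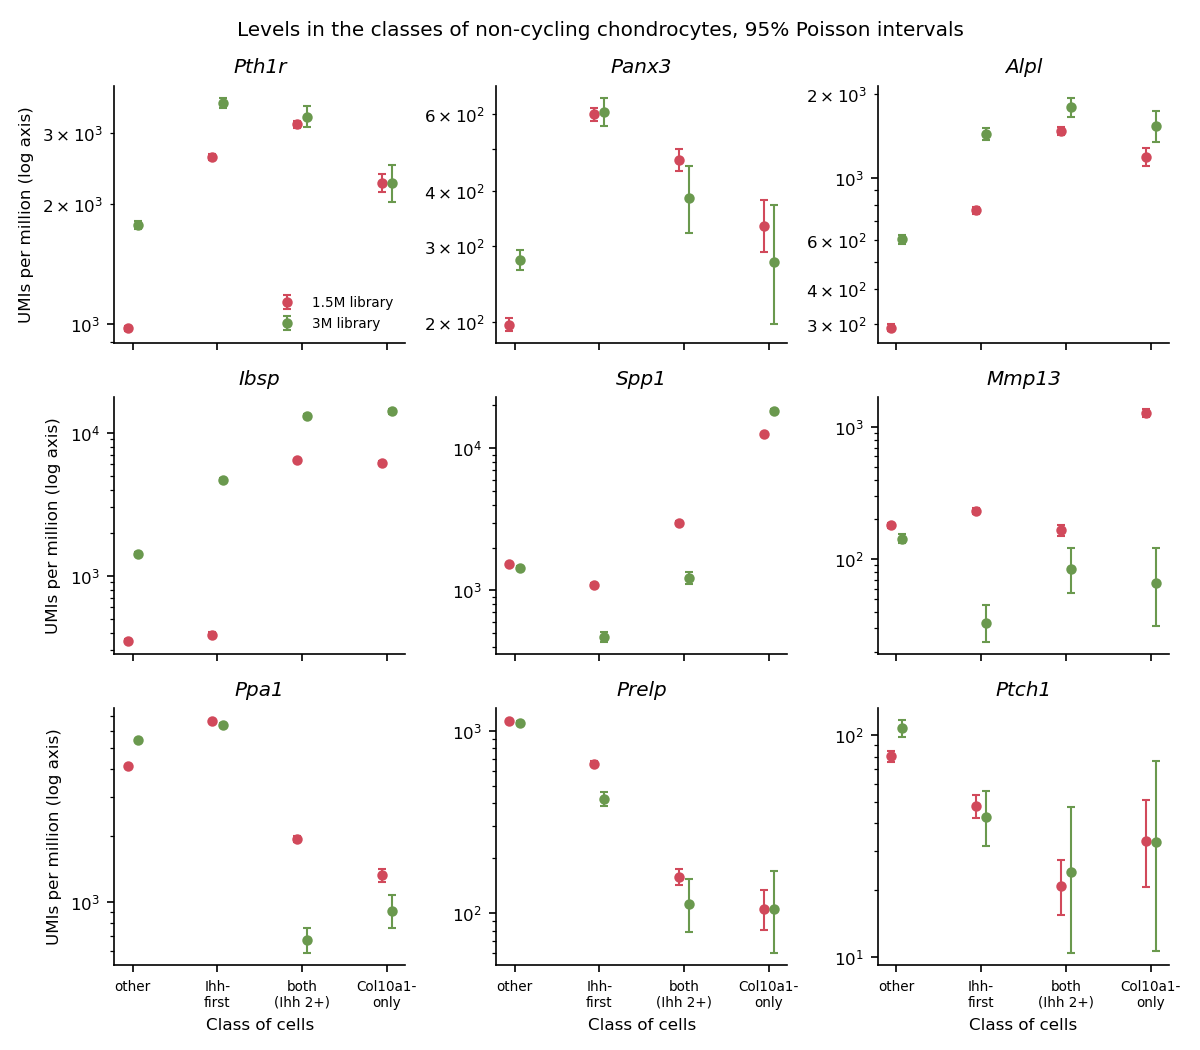
CPM (y, log axes that differ between panels) of 9 genes in other chondrocytes, Ihh-first cells, cells with both genes and Col10a1-only cells (x) of the 1.5M and 3M libraries, with 95% Poisson intervals. Spp1 is highest in Col10a1-only cells in both libraries, Ppa1 and Prelp are lower in both Col10a1-high classes than in Ihh-first cells, and Pth1r is higher in all 3 classes than in the other chondrocytes.

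Over the 3 ages, 96 of 1493 genes rose in the class in the order 1M, 1.5M, 3M with neighbouring intervals apart (6.43% called), and 196 fell (13.1% called). Of these, 94 and 194 differed in the same direction between 1M and 3M in the other non-cycling chondrocytes, whatever the size of the difference. The direction of nearly all of the age differences was thus shared, but not always their size or order. Frzb, which rose in the class, was at 36.4, 19.9 and 40.2 CPM in the other chondrocytes. Depth was lowest at 3M, and the 1M class held 28 cells and the highest neutrophil markers. Their part in the differences was not tested.

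Among genes that rose, Timp3, an inhibitor of matrix proteases, went from 314 (267 to 368) through 921 (901 to 941) to 3170 (3085 to 3257) CPM, and from 231 through 252 to 1010 CPM in the other chondrocytes. Nrgn, a calmodulin-binding protein, went from 16.2 through 54.5 to 675 CPM. H1f0, a linker histone of cells that no longer divide, went from 219 through 757 to 1380 CPM, and Frzb, a secreted Wnt inhibitor, from 24.3 through 47.1 to 166 CPM. Sfn, Cxcl14, Camk2d and Shisa2 were the other 4 with the largest ratios. Pth1r, Mef2c, Runx2, Pcolce2, Cdkn1a and Mgp, all described above, also rose in this order. Of 8 measured genes of the hypertrophy and mineralization list, the mineralization inhibitor Mgp was the only 1 that rose, while Anxa5 and Spp1 fell.

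Among genes that fell, H19, an imprinted noncoding RNA of fetal and young tissue, went from 618 (551 to 692) through 161 (153 to 170) to 37.3 (28.6 to 47.9) CPM. Slc16a3, the lactate exporter of glycolytic cells, went from 124 through 68.8 to 0.602 CPM, the last from 1 UMI. Ucma fell from 1548 to 225 CPM. Rbp4, Fkbp11, Eif4ebp1, R3hdml and Loxl3 were the other 5 with the largest ratios. Of 12 measured genes of the glycolysis and hypoxia list, 5 fell (Aldoa, Gapdh, Ldha, Pkm and Tpi1) and 1, Hk2, rose. The list median log2 ratio between 3M and 1M was −1.28 in the class and −0.97 in the other chondrocytes. Of 17 secretory pathway genes 7 fell (median −0.93 in the class, −0.40 in the others), among them Hspa5, Hsp90b1 and Calr, and of 17 ribosomal protein genes 9 fell. The median over all 1493 genes was −0.24 in the class and −0.11 in the others, so these lists lay below the general shift.

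**Figure D5:**
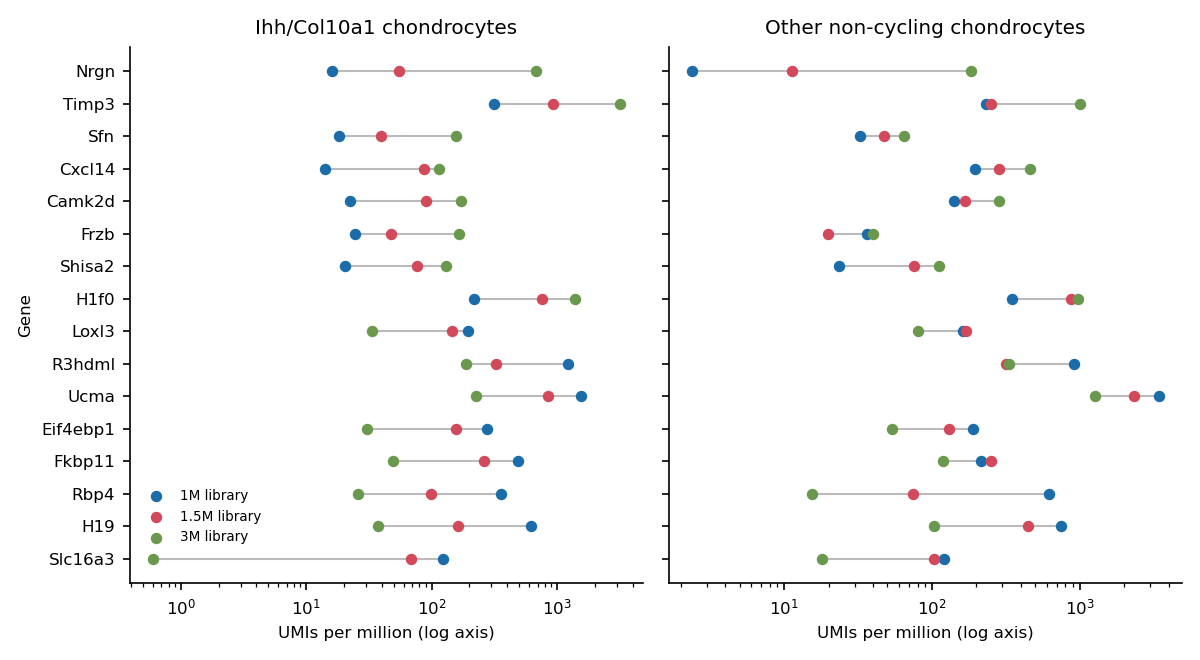
CPM (x, log axis) of the 8 genes that rose most and the 8 that fell most (y) in Ihh/Col10a1 chondrocytes (left) and in the other non-cycling chondrocytes (right), 1 point per library joined by a line. Timp3, Nrgn and H1f0 move right and H19, Ucma and Slc16a3 move left from 1M to 3M in both panels, and the Slc16a3 point at 3M in the left panel is 1 UMI.

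Promoters of the genes called in the class were searched for the same 3 motifs. RefSeq promoters matched 12 of the 17 higher genes (21 promoters) and 14 of the 20 genes higher in Col10a1-high cells (17 promoters). TATA letters stood in 6 of the 21 (28.6%: Alpl, Ddit4l, Ibsp, Krtap17-1 and Mef2c) and in 5 of the 17 (29.4%: Hpgd, Ibsp, Krtap17-1, Spp1 and Tcf7l2), where 9.97% and 10.0% of the promoters of the measured genes held them. A RUNX core stood in 1 and 2 of them (4.76% and 11.8%), against 12.65% and 12.1% of promoters of measured genes. An AP-1 site stood in 3 and 0 (14.3% and 0%), against 6.37% and 5.89%. For the lower genes of the same comparisons, a RUNX core stood in 3 of 12 and 2 of 12 promoters (25% and 16.7%). AP-1 sites stood there in 2 and 1, and TATA letters in 1 and 0. These are matches of letters over few promoters, several of them of the same gene.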

How the data were processed

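The authors aligned reads with Cell Ranger 3.0.2 to mm10 with the reporter added, and deposited raw UMI counts per gene and barcode for each library (32672631 to 108227184 UMIs per library, and medians of 10238, 9309, 5999 and 8648 UMIs per barcode at 1M, 1.5M, 3M and 16M). Nothing was normalized before deposit. The labels also name Seurat 2.

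Here cells were filtered and classed as described, with Python 3.11.15, numpy 2.4.6, scipy 1.17.1 and pandas 2.3.3. Doublet scores came from Scrublet (scanpy 1.11.5) and removed no cell except in an alternative. Counts were summed per class and library and given as CPM. A gene was called at 2-fold or more, with exact Poisson 95% intervals apart in every library with at least 20 cells in both classes and at least 100 CPM in the higher class. Genes of the rule were left out. Named were the 12 called genes with the largest smallest ratio in each direction, the 8 with the largest 3M to 1M ratio, and genes of 19 lists (286 of 289 genes in the tables). Other singled-out values were chosen after they were seen. The comparison code was tested on simulated counts. The members and lists were chosen with earlier results of these data known. Neutrophils were gated by S100a8 and S100a9 (at least 100 per 10000), Ptprc and no Sox9. Gene positions came from GENCODE M21. Alternatives covered the filters, thresholds, depth, doublets, CPM total, cell weighting and each library left out.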

Additional observations from a re-analysis of the deposited data

Results flagged for a closer look

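A pair of genes differed in direction between libraries when the Ihh/Col10a1 chondrocytes were set against the other non-cycling chondrocytes, and the difference between the libraries was not tested. Cytl1, a secreted protein of cartilage, had log2 ratios of 1.08 at 1M, −1.29 at 1.5M and 1.98 at 3M. It was at 162, 59.6 and 2953 CPM in the class and 76.7, 146 and 746 CPM in the other chondrocytes, and 1 cell gave 56.3% of its UMIs in the 1M class, which stood at 73.7 CPM without it. Mmp13 had log2 ratios of 3.05 at 1M and −1.63 at 3M, and 1 cell gave 90.4% of its UMIs in the 1M class.

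The 16M library, which the comparisons do not use, held 4 cells that met the chondrocyte conditions among 6143 passing cells, 1 more than the 3 that a count of 0 allows.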

How the results depend on the processing

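No paired analysis was possible because each age is 1 library and no test was made. The 705 cells became 320 when each cell was thinned to 3000 UMIs, and 198 to 677 when a library was left out. Their share, 25.3% of non-cycling chondrocytes, became 21.6% with at least 3 Ihh UMIs, 13.4% when thinned, and 18.7% to 27.4% when a library was left out. The 17 genes higher in the class became 41 when thinned, 29 with a 50 CPM minimum, and 22 to 30 when a library was left out, and the 13 lower genes became 24, 23, and 19 to 20. All 17 and 11 of the 13 were still called when thinned. Leaving out the 1M library gave 30 and 20. The 20 genes higher in Col10a1-high cells became 13 when thinned, 33 with a 50 CPM minimum, 38 without 1.5M and 56 without 3M. The 16 lower ones became 25 with a 50 CPM minimum, 50 without 1.5M and 30 without 3M. Leaving out 1M could not change these counts, because this comparison did not use that library. An alternative chosen after seeing the data, at least 5 cells in both classes, let the 1M library in and gave 15 higher and 9 lower. Fewer libraries or cells change what the rule demands, and other causes were not tested. Of the named genes in the Col10a1-high comparison, calls also ended for Aldh1a3, Ramp1, Tcf7l2, Bhlhe41, Chst11, Crispld2, Pkdcc and Ucma with that alternative, for Bhlhe41, Pkdcc, Rrad and Ucma with at least 3 Ihh UMIs, for Hpgd and Col12a1 with Col10a1 at 50 per 10000, for Aldh1a3 with the 10% mitochondrial limit or no Sox9 condition, for Rrad with no Sox9 condition or without high doublet scores, and for Bhlhe41 with cells weighted alike. Each named gene kept its direction under every alternative run, and 591 of 648 ratios moved by less than the spread between libraries. The 648 include the ratios of the Col10a1-high comparison without 1M, which could not move. Depth limits genes under about 100 CPM at 1M, where the class is 28 cells.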
